A study of Homo sapiens with 6 samples.

Results

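The 9 genes described here encode components and regulators of the complement system, and were picked by name out of the 58735 genes of the deposited tables: *C1R*, *C1S*, *C3*, *CFB*, *CFI*, *SERPING1*, *CD46*, *CD55* and *CD59*. Their RNA was followed in the pleural mesothelioma (PM) cell line H2452 to ask whether it differed when *NF2*, the gene of the tumour suppressor merlin, was targeted by CRISPR. There were 3 libraries of cells given a scrambled guide (sgCtrl, genotype label WT) and 3 of cells given an *NF2* guide (sg*NF2*-1, genotype label NF2-KO). Every library came from cells transduced with a lentivirus that carries Cas9, an sgRNA and mCherry, sorted for mCherry and grown in RPMI-1640 with serum, so both groups received Cas9. Each group was a sorted pool of 1 cell line, not described as a clone, and 1 guide stands for the knockout. The paper describes its n in general as biological replicates. Nothing in the labels says that replicates came from separate cultures, so the p-values measure only the spread between these samples.

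Complement is a protein cascade of blood and tissue fluid that tags surfaces for removal and can punch holes in membranes. It starts on bound antibody through the C1 complex, on sugars through the lectin pathway, or spontaneously through the alternative pathway, and all routes meet at the cleavage of C3. Host cells hold it in check with soluble inhibitors and with membrane proteins that take apart convertases or block the pore, and although the liver makes most of the circulating components, mesothelial and other tissue cells transcribe several of them.

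Of the 9 genes, 8 had enough counts to be tested, and of these 6 fell in sg*NF2*-1 cells, 1 rose and 1 did not pass the test (edgeR quasi-likelihood test, adjusted p under 0.05 over all 14179 genes tested). Over all genes tested, 34.3% were called in either direction, 16.6% lower and 17.7% higher. Calling at an unadjusted p under 0.05 with a log2 fold change beyond 0.5 also gave 6 lower and 1 higher, where 10.8% of all genes tested were lower and 9.22% higher. *C1R*, *C1S*, *C3* and *CFB* stood at 44.3% to 51.1% of their sgCtrl level, *CD46* and *CD59* fell less, and *CD55* rose. The median log2 fold change of the 8 genes was −0.77, against −0.00 over all genes tested. These genes and the gene lists below were chosen with earlier results of these data known. Neither the share called nor the median is therefore an independent test of the set. Together the 9 genes took 0.410%, 0.403% and 0.369% of all counts in the sgCtrl libraries and 0.214%, 0.207% and 0.197% in the sg*NF2*-1 libraries. In these bulk samples, fewer cells that make a transcript and less of it per cell cannot be told apart.

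Total counts per library ranged from 14782423 to 17416463. *NF2* itself had 1162, 1197 and 1025 counts in sgCtrl and 692, 802 and 590 in sg*NF2*-1, a log2 fold change of −0.69 (SE 0.10, edgeR adjusted p = 7.87e-06), so its transcript was lower but still present in the libraries labelled NF2-KO. The paper judged the knockout by western blot, that is by protein, which these counts do not measure. Of 9 mesothelial markers, only *KRT5* stayed at 3 counts or fewer in every library, and the summed level of the list was 3264 to 3680 CPM (counts scaled to library size by TMM) in sgCtrl and 2862 to 3515 CPM in sg*NF2*-1, of which *KRT8* alone made up a mean of 1961 and 1730 CPM. Of the 8 mesothelial markers tested, 3 were called lower, *PDPN* (log2 fold change −1.28), *WT1* (−1.04) and *KRT19* (−0.94, from 566 to 296 CPM), and 2 higher, *MSLN* (0.66) and *KRT18* (0.28, not called without sgCtrl replicate 1 or 2 or sg*NF2*-1 replicate 3, at 0.26, 0.24 and 0.21). Of 7 leukocyte markers, 5 had at most 3 counts in every library. The defining marker *PTPRC*, with *AIF1* and *TYROBP*, was at 0 throughout. The sum of the leukocyte list went from 136 to 150 CPM in sgCtrl to 65.2 to 72.6 CPM in sg*NF2*-1. Of this sum, *CD14* (log2 fold change −1.06) alone made up a mean of 139 and 66.9 CPM. The 3 endothelial markers summed to 6.19 to 8.53 CPM in sgCtrl and 1.93 to 3.24 CPM in sg*NF2*-1, a difference made by *PECAM1* (−2.28), while *CDH5* was at 0.37 and not called. Of the 3 hepatocyte markers, *APOA1* and *TTR* were at 0, and the list summed to at most 0.259 CPM. The leukocyte and endothelial sums and 3 of the mesothelial markers thus moved in the same direction as most of the complement genes, 2 mesothelial markers moved in the other, and their part in the results was not tested.

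Promoter sequences were read from RefSeq (GRCh38.p14, from 250 bases before to 50 after each start), which matched 6 of the 9 genes with 11 windows. They are shown for 1 protease gene and *CFB*, which fell, and for *CD55*, which rose. The letters before the RefSeq starts of genes that moved in opposite directions can so be read against each other. These starts lie inside the gene positions of the count table, and so does each printed stretch. Each stretch is the 150 bases before the start, 5′ to 3′ on the strand of the gene, and capitals mark the motif matches. The motifs were searched on both strands: the TEAD motif GGAATG (the DNA element bound by the partners of YAP), the cyclic AMP response element core TGACG, the STAT element (GAS) TTCNNNGAA, the ISRE-type element GAAANNGAAA of interferon response factors, and the NF-kB motif. The stretches lie at chr12:7092446-7092595 (minus strand) for *C1R*, chr6:31945945-31946094 (plus strand) for *CFB* and chr1:207321528-207321677 (plus strand) for *CD55*.
C1R: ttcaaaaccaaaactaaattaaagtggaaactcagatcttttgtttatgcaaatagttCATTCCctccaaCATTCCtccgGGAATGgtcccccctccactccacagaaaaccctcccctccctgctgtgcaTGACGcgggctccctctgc
CFB: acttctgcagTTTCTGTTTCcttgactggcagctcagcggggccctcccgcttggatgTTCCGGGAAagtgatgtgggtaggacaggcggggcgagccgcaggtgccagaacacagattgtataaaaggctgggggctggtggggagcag
CD55: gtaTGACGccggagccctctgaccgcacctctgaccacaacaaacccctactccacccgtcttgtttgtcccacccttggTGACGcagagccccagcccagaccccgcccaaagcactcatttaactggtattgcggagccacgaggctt

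The *C1R* stretch held 3 TEAD matches, at 92, 80 and 70 bases before the start (first base of each), and 1 cyclic AMP core at 19 bases. Of 35116 promoter windows of this length, 14.03% held at least 1 TEAD match and 0.128% held 3 or more, while 24.6% held the cyclic AMP core. This *C1R* window was 1 of 11 searched for every motif, so 0.128% is not the probability of meeting such a window among them. The second *C1R* window and the windows of *CD46*, *CD55*, *CD59* and *CFI* held no TEAD match. *CFB* had 1 ISRE-type match and 1 STAT match in its stretch and 1 TEAD match after the start, motifs present in 3.57%, 7.66% and 14.03% of all windows. The *CD55* stretch held 2 cyclic AMP cores. In the windows not printed, *CD46* had 1 cyclic AMP core in each of its 2 overlapping windows, *CD59* a STAT match in 2 of its 4 windows, the second *C1R* window 1 STAT match, and *CFI* no match. The NF-kB motif, present in 5.91% of all windows, was not found in these letters for any of the 6 genes. These matches describe letters and were not tied to binding by any measurement here. No window was matched for *C1S*, *C3* and *SERPING1*.

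The protease genes of the C1 complex came down together. *C1R* (ENSG00000159403, chr12:7080199-7092607, GRCh38, minus strand) encodes the protease that C1q activates, which then cleaves C1s. Its level was 683, 644 and 642 CPM in the sgCtrl libraries and 330, 320 and 356 CPM in the sg*NF2*-1 libraries. Every sg*NF2*-1 library lay below every sgCtrl library, and the groups did not overlap. Over all genes tested, 22.2% had sg*NF2*-1 libraries wholly below sgCtrl and 23.2% wholly above. The mean fell from 656 ± 23.1 to 336 ± 18.7 CPM (SD, n = 3), 1.96-fold lower, a log2 fold change of −0.97 (SE 0.08, edgeR adjusted p = 1.54e-09). By the two-sided exact permutation test of CPM, p was 0.10, the smallest that 3 libraries against 3 can give.

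*C1S* (ENSG00000182326, chr12:6988259-7071032, plus strand) encodes the protease that cleaves C4 and C2, and had the highest FPKM of the set in both groups. It stood at 1470, 1371 and 1268 CPM in sgCtrl and at 725, 683 and 662 CPM in sg*NF2*-1. The groups did not overlap, and the lowest sgCtrl library was still well above the highest sg*NF2*-1 library. The log2 fold change was −0.99 (SE 0.09, edgeR adjusted p = 2.88e-09), close to that of *C1R*. Within a library, the FPKM (reads scaled to gene length and library size) of *C1S* over that of *C1R* was 1.90 ± 0.0874 in sgCtrl and 1.88 ± 0.165 in sg*NF2*-1 (SD, n = 3), a difference smaller than the spread between replicates (exact permutation p = 0.9). The 2 genes lie tail to tail with 9166 bases between them.

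*C3* (ENSG00000125730, chr19:6677704-6730562, minus strand), the protein at which all pathways converge, had the largest decrease of the set. It was measured at 1029, 1107 and 994 CPM in sgCtrl and at 443, 491 and 453 CPM in sg*NF2*-1. All 3 sg*NF2*-1 libraries were low, with no overlap. The mean went from 1044 ± 58.0 to 462 ± 25.3 CPM (SD, n = 3), 2.26-fold lower (log2 fold change −1.17, SE 0.08, edgeR adjusted p = 1.01e-10). Counted from the lowest fold change, *C3* was at position 329 of the 14179 genes tested.

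*CFB* (ENSG00000243649, chr6:31945650-31952084, plus strand) encodes factor B, the serine protease of the alternative pathway convertase. It was measured at 24.0, 28.4 and 20.6 CPM in sgCtrl and at 11.9, 12.1 and 12.6 CPM in sg*NF2*-1. The sg*NF2*-1 libraries lay within a narrow range and below every sgCtrl library. The log2 fold change was −1.002 (SE 0.13, edgeR adjusted p = 1.63e-06), 2.00-fold lower. The ratio of *C3* to *CFB* in FPKM was 26.0 ± 2.77 in sgCtrl and 22.8 ± 1.45 in sg*NF2*-1 (SD, n = 3, exact permutation p = 0.2), and that of *C3* to *C1S* was 0.593 ± 0.0439 and 0.521 ± 0.0428 (exact permutation p = 0.2). These are 2 of 6 ratios compared, and both had an adjusted p of 0.3 by the exact permutation test with Benjamini-Hochberg adjustment.

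**Figure D1:**
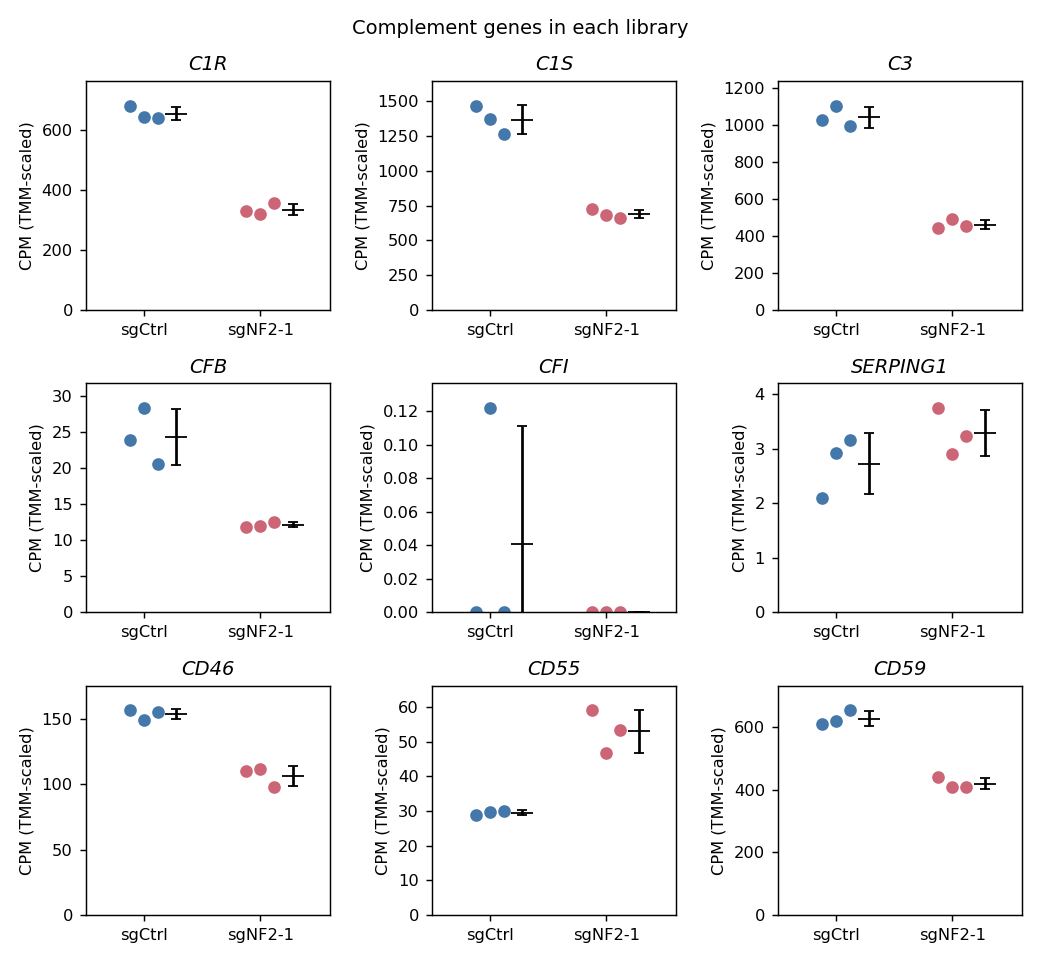
CPM (TMM-scaled, axes from 0) of each of the 9 complement genes in the 3 sgCtrl (blue) and 3 sg*NF2*-1 (red) libraries, with the mean and SD in black. *C1R*, *C1S*, *C3*, *CFB*, *CD46* and *CD59* are lower in every sg*NF2*-1 library, *CD55* is higher in every one, *SERPING1* overlaps, and *CFI* is at 0 in all but 1 library.

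The soluble regulators had few counts. *CFI* (ENSG00000205403, chr4:109740694-109802179, minus strand) encodes factor I, which cleaves C3b and C4b with the help of cofactors. It had 0, 2 and 0 counts in sgCtrl and 0 in every sg*NF2*-1 library, and was not tested. A count of 0 allows up to 3 counts, or 0.172 to 0.203 CPM depending on the library (counting error only), and no fold change was computed.

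*SERPING1* (ENSG00000149131, chr11:57597387-57614853, plus strand) encodes the C1 inhibitor, the serpin that inactivates C1r and C1s. It had 33, 48 and 48 counts in sgCtrl and 66, 45 and 46 in sg*NF2*-1, which is 2.09, 2.92 and 3.16 CPM against 3.75, 2.92 and 3.23 CPM. The groups overlapped. The log2 fold change was 0.28 (SE 0.26, 95% interval −0.25 to 0.81, edgeR adjusted p = 0.43), so neither a small decrease nor a rise of up to 0.81 on the log2 scale could be told from no change at this depth. Set against the proteases it inhibits, *SERPING1* amounted to 0.169%, 0.252% and 0.288% of the summed FPKM of *C1R* and *C1S* in sgCtrl and to 0.619%, 0.505% and 0.550% in sg*NF2*-1. These shares did not overlap (exact permutation p = 0.10, 0.3 after adjustment over the 6 ratios), and both the numerator and the denominator enter them.

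The 3 membrane regulators did not move in 1 direction. *CD46* (ENSG00000117335, chr1:207752057-207795513, plus strand) encodes membrane cofactor protein, with which factor I inactivates C3b and C4b. It stood at 157, 149 and 156 CPM in sgCtrl and at 110, 112 and 97.9 CPM in sg*NF2*-1. The groups did not overlap. The log2 fold change was −0.53 (SE 0.08, edgeR adjusted p = 1.81e-05), 1.44-fold lower.

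*CD59* (ENSG00000085063, chr11:33703010-33736491, minus strand) encodes the GPI-anchored inhibitor of the membrane attack complex. Its level was 609, 618 and 652 CPM in sgCtrl and 439, 409 and 408 CPM in sg*NF2*-1. Again every sg*NF2*-1 library was the lower one. The log2 fold change was −0.58 (SE 0.08, edgeR adjusted p = 3.74e-06), 1.496-fold lower, and the FPKM of *CD59* over that of *CD46* was 3.42 ± 0.136 in sgCtrl and 3.31 ± 0.223 in sg*NF2*-1 (SD, n = 3, exact permutation p = 0.6).

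*CD55* (ENSG00000196352, chr1:207321376-207386804, plus strand) encodes decay-accelerating factor, the GPI-anchored protein that speeds the break-up of the C3 convertases, and was the 1 gene of the set that rose. It was at 28.7, 29.6 and 30.1 CPM in sgCtrl and at 59.0, 46.6 and 53.3 CPM in sg*NF2*-1. The sgCtrl libraries lay close together and all below the sg*NF2*-1 libraries, which were more spread. The mean rose from 29.5 ± 0.695 to 53.0 ± 6.20 CPM (SD, n = 3), 1.80-fold higher (log2 fold change 0.85, SE 0.10, edgeR adjusted p = 5.59e-07). Of the summed FPKM of the 3 membrane regulators, *CD55* made up 5.96%, 6.13% and 5.93% in sgCtrl and 15.4%, 13.1% and 15.1% in sg*NF2*-1 (exact permutation p = 0.10, 0.3 after adjustment over the 6 ratios). *CD59* was thus still the most abundant of the 3 per length in both groups. *CD55* and *CD46* are neighbours on chromosome 1, with 365252 bases between the end of one and the start of the other, and the complement receptor genes *CR2* and *CR1* that lie between them had 0 counts in all 6 libraries.

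**Figure D2:**
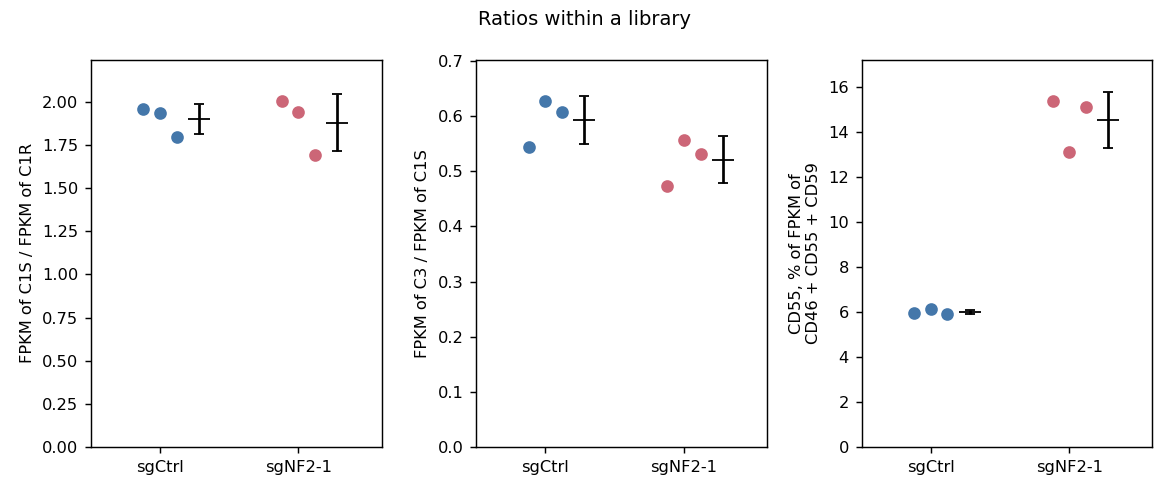
Ratios of FPKM within each library (axes from 0; blue sgCtrl, red sg*NF2*-1; mean and SD in black). *C1S* over *C1R* is 1.90 in sgCtrl and 1.88 in sg*NF2*-1, *C3* over *C1S* overlaps between the groups, and *CD55* goes from 5.93% to 6.13% of the membrane regulators in sgCtrl to 13.1% to 15.4% in sg*NF2*-1.

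Levels can be compared between genes only per length, for which FPKM was used. In sgCtrl the order of mean FPKM was *C1S* (201 ± 14.97), *C3* (119 ± 6.79), *C1R* (106 ± 3.73), *CD59* (57.3 ± 2.04), *CD46* (16.7 ± 0.404), *CD55* (4.73 ± 0.109), *CFB* (4.62 ± 0.746) and *SERPING1* (0.717 ± 0.147, SD, n = 3 for each), with *CFI* last. *CD55* and *CFB* were the only neighbours in that order whose libraries overlapped. In sg*NF2*-1 the order was *C1S* (100.3 ± 4.64), *C1R* (53.5 ± 2.87), *C3* (52.1 ± 2.99), *CD59* (37.9 ± 1.58), *CD46* (11.5 ± 0.843), *CD55* (8.42 ± 0.970), *CFB* (2.29 ± 0.0653) and *SERPING1* (0.860 ± 0.109). Here *C1R* and *C3* overlapped and *CD55* no longer overlapped *CFB*. Ranked among 13038 genes (those whose mean reached 0.5 FPKM), *C1S* went from position 168 to 384, counted from the highest level, *C3* from 328 to 819, *C1R* from 367 to 795 and *CD55* from 6482 to 4586.

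Tested on log2(FPKM + 1) with limma, 7 of the 8 genes were called, where 26.8% of all genes tested were. The differences were −0.97 for *C1R*, −0.99 for *C1S*, −1.17 for *C3*, −0.58 for *CD59* and −0.51 for *CD46* (limma adjusted p from 0.000275 to 0.00394). On this scale, which understates changes of low genes, *CFB* differed by −0.76 and *CD55* by 0.71, and *SERPING1* by 0.12 (limma adjusted p = 0.37).

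**Figure D3:**
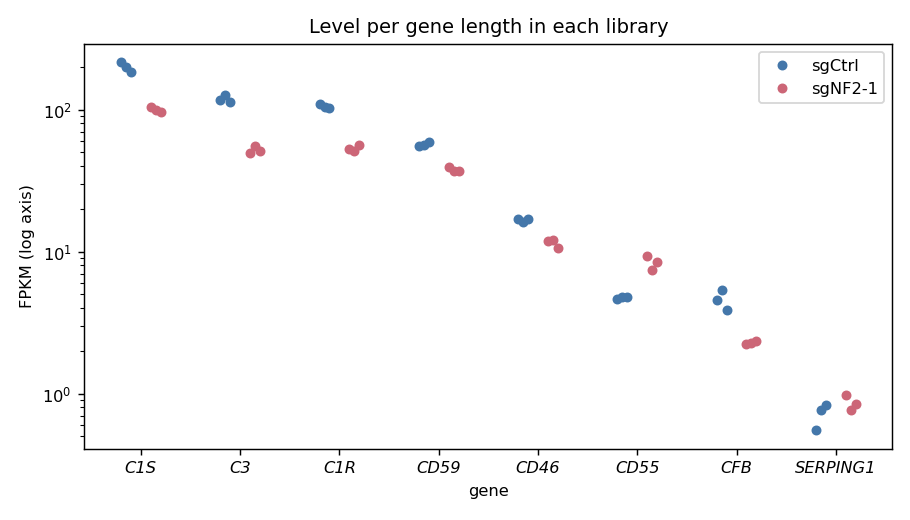
FPKM (log axis) of the 8 complement genes above 0.1 FPKM, ordered by their mean in sgCtrl, with 1 point per library (blue sgCtrl, red sg*NF2*-1). *C1S* is highest in both groups at 201 and 100.3 FPKM, and *CD55* is above *CFB* in every sg*NF2*-1 library.

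The rest of the system was read from a list of 52 other complement genes, of which 16 could be tested and 22 had 0 counts in every library. *C1QA*, *C1QB* and *C1QC*, which encode the recognition part of the C1 complex, were at 0, as were *MBL2*, the pore genes *C7*, *C8A* and *C8B*, and the inhibitor gene *C4BPA*. Of the 16, 3 rose and 6 fell (over all genes tested, 17.7% and 16.6%), and the median of their log2 fold changes was −0.36. Among those that fell, *C1RL*, a protease related to *C1R*, went from 83.0 ± 4.23 to 47.9 ± 3.67 CPM (log2 fold change −0.79), *COLEC12*, a scavenger receptor of the collectin family, from 8.69 ± 1.59 to 1.03 ± 0.275 CPM (−3.08), and *ITGAX*, a subunit of complement receptor 4, from 16.9 ± 2.45 to 9.08 ± 1.14 CPM (−0.89). The other subunit gene of that receptor, *ITGB2*, had 0, 4 and 3 counts in sgCtrl and 7, 2 and 10 in sg*NF2*-1. It was not tested. The terminal pathway inhibitors *VTN* and *CLU* fell by 0.41 and 0.35 on the log2 scale. Those that rose were *THBD* (thrombomodulin, log2 fold change 0.60), *C1QBP* (a protein found mainly in mitochondria, 0.38) and *C4A* (0.33, edgeR adjusted p = 0.0248). *C4A* is nearly identical to *C4B*, which was at 0.18 and not called, so the division of reads between them is uncertain, and the *C4A* libraries overlapped between groups.

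Leaving out 1 library ended some of these calls. *C4A* was no longer called without sgCtrl replicate 2, sg*NF2*-1 replicate 2 or sg*NF2*-1 replicate 3 (log2 fold change 0.31, 0.28 and 0.20), nor *VTN* without sg*NF2*-1 replicate 1 (−0.30). Without sg*NF2*-1 replicate 1, 4 of the other complement genes were called lower in place of 6.

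**Figure D4:**
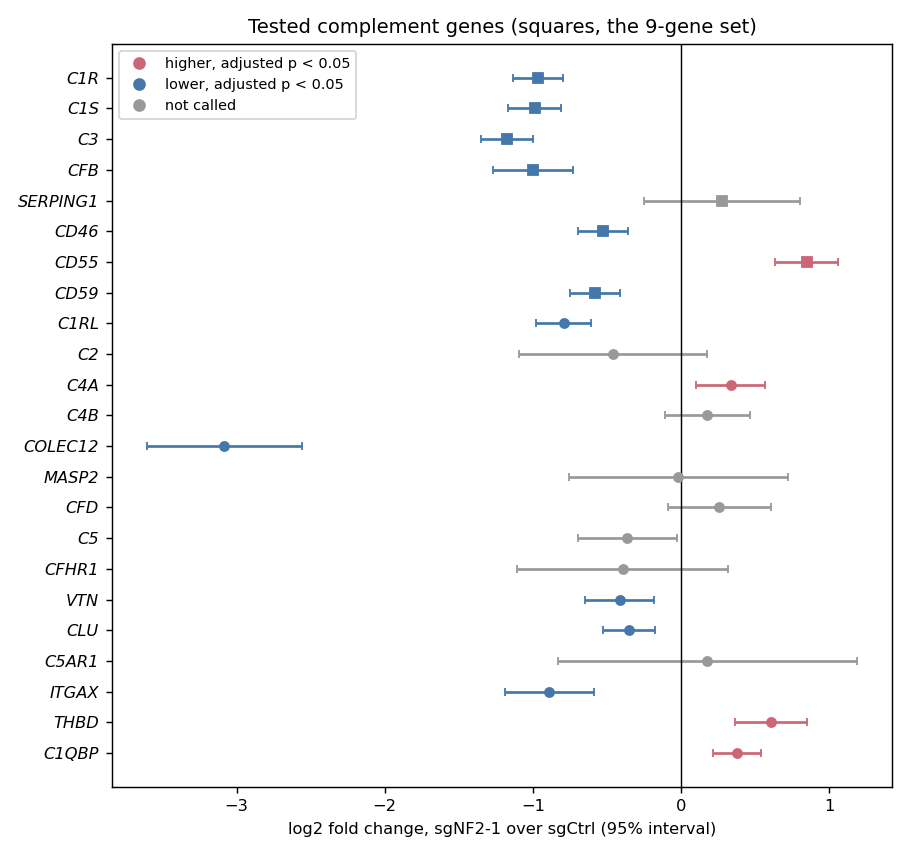
Log2 fold change of sg*NF2*-1 over sgCtrl with its 95% interval for the 8 tested genes of the 9-gene set (squares) and 15 other tested complement genes (circles) (blue lower, red higher, grey not called at an adjusted p of 0.05). *C1R*, *C1S*, *C3* and *CFB* lie between −1.17 and −0.97, *CD55* at 0.85, and *COLEC12* is the lowest at −3.08.

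*CD55* and *CD59* are held on the membrane by a GPI anchor, so the 28 genes of GPI synthesis and remodelling were read beside them. Of 27 tested, 3 rose and 5 fell, and the median log2 fold change was 0.01. The share called, 29.6%, was below the 34.3% called over all genes tested. *PGAP2*, which remodels the anchor, rose (log2 fold change 0.52), as did *PIGV* (0.34) and *DPM2* (0.34), and *DPM3* (−0.61), *PIGK* of the transamidase (−0.54), *PIGS* of the same complex (−0.45) and *PIGN* (−0.42) fell. Without sg*NF2*-1 replicate 2, 3 of these genes were called lower in place of 5. *DPM3* was called only with all 6 libraries or without sg*NF2*-1 replicate 3, *PIGV* only with all 6 or without sgCtrl replicate 3 or sg*NF2*-1 replicate 3, and *PGAP2* was lost without sg*NF2*-1 replicate 3.

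Complement genes are known targets of interferon, IL-6 family and NF-kB signalling and of C/EBP factors, and 31 genes of these pathways were listed. Of 30 tested, 7 rose and 13 fell (over all genes tested, 17.7% and 16.6%), and the median of their log2 fold changes was −0.16. Leaving out 1 library gave 10 to 12 of these genes lower and 5 to 7 higher. In the NF-kB group 4 of 8 rose, among them *RELB*, the partner of p52, from 40.4 ± 6.55 to 78.6 ± 7.77 CPM (log2 fold change 0.96), and *NFKB2* (0.62), which encodes p52, while *NFKBIA*, the inhibitor IkBa, fell (−0.50). In the interferon and IL-6 family group 10 of 19 fell and 1 rose. *SOCS1*, a feedback inhibitor of JAK kinases, went from 9.91 ± 0.171 to 3.72 ± 0.439 CPM (−1.41), *SOCS3* fell by 0.81 on the log2 scale, and *IRF1* was the gene that rose (0.63). *STAT2*, chosen after its values were seen, was at −0.43. Of the 3 C/EBP genes tested, *CEBPG* rose (0.93), *CEBPD* fell (−0.52), and *CEBPB*, named after its values were seen, rose from 324 to 399 CPM (0.30, not called without sgCtrl replicate 2, at 0.26). Whether any of these changes bears on the complement genes was not tested.

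**Figure D5:**
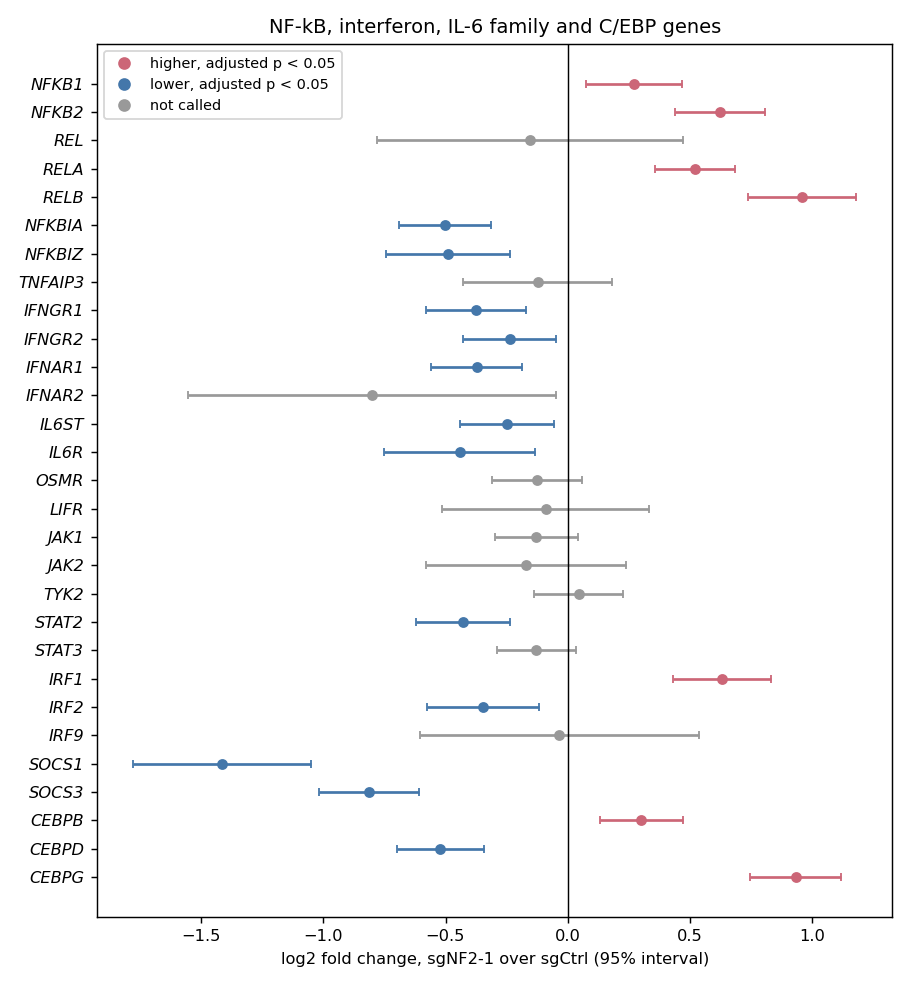
Log2 fold change of sg*NF2*-1 over sgCtrl with its 95% interval for 29 tested NF-kB, interferon, IL-6 family and C/EBP genes (blue lower, red higher, grey not called at an adjusted p of 0.05). *RELB* is the highest at 0.96 and *SOCS1* the lowest at −1.41.

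Among the 3 genes whose profile over the 6 libraries was most like that of *C3* were *SLCO2B1* and *AP000769.1*, with root mean square differences in log2 CPM of 0.0432 and 0.0699 after centring each of 13137 genes on its own mean. On the same measure *C1S* came at position 60, *CFB* at 72 and *C1R* at 75, with differences of 0.13 to 0.14, *CD59* at 709 and *CD46* at 865. For *CD55* the closest were *ADAM11* (0.0701), *GPATCH4* (0.0751) and *CEP83* (0.0782), and no other gene of the set came nearer than *SERPING1* at position 2502. With 3 libraries a group, such a measure is set mostly by the size of the difference between groups.

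Some counts may be shared with overlapping genes, as the strand setting of the counting is not stated. *C1R* overlaps *C1RL* by 3021 bases on the same strand, with a mean of 10362 and 1311 counts in sgCtrl. *C1S* (21635 counts) overlaps *EMG1* (675) and *LPCAT3* (161), *C3* (16495) overlaps *GPR108* (1692), *CFB* (386) overlaps *C2* (40) and *CD59* (9876) overlaps *AL049629.2* (10.7), so in sgCtrl each of these partners had fewer counts than the complement gene. In sg*NF2*-1 the mean counts, not scaled to library size, were 758 for *C1RL*, 667 for *EMG1*, 88 for *LPCAT3* and 2039 for *GPR108*. Those of *C2* and *AL049629.2* were 29 and 7.33.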

How the data were processed

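RNA-seq counts per gene and FPKM values were deposited by the authors for 3 sgCtrl and 3 sg*NF2*-1 libraries of H2452 cells, grouped by sample title. The submitters' processing notes name hg38, HISAT2, StringTie 1.3.3b and featureCounts 1.5.0-p3, without saying which step each served. The study tested with DESeq2. All 9 genes lie at their GENCODE 29 positions.

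The deposited counts (14782423 to 17416463 per library) were filtered with filterByExpr (minimum count 10, total 15), TMM-normalised and fitted with edgeR 4.0.16 (quasi-likelihood, R 4.3.3). P-values were adjusted by Benjamini-Hochberg over 14179 genes and called at 0.05. The authors' FPKM values were tested with limma 3.58.1 on log2(FPKM + 1) for 13038 genes whose mean reached 0.5. Single genes and ratios were compared by two-sided exact permutation tests.

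The members and gene lists were chosen with earlier results of these data known. Named were all members, called other complement genes of mean CPM at least 1, and the 4 largest called changes in each direction of the GPI and signalling lists. Some results that this rule selects, or that the lists hold, are not reported here. Alternatives were DESeq2 1.42.0, other size factors and filters, a replicate block, leaving out each library, the p and fold limits of the study's methods and, for FPKM, a pseudocount of 0.1 or no filter. Those for single genes outside the 9 were added after seeing the data. The same-numbered libraries deviated together with a correlation of −0.03 to 0.06, so the numbers were not taken as pairs. The scripts were tested on simulated data.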

Additional observations from a re-analysis of the deposited data

How the results depend on the processing

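Each of the 8 tested complement genes kept its direction and its side of the threshold in all 12 alternative count fits and all 9 FPKM fits, and 6 were called lower and 1 higher throughout. Across the count fits the log2 fold change ranged from −1.22 to −1.13 for *C3*, −1.10 to −0.88 for *CFB*, 0.76 to 0.93 for *CD55* and 0.12 to 0.40 for *SERPING1* (adjusted p 0.30 to 0.79, edgeR and DESeq2). Calling at an unadjusted p under 0.05 with a log2 fold change beyond 0.5 left 1 other complement gene higher in place of 3, 1 GPI gene higher in place of 3, 2 GPI genes lower in place of 5 and 5 signalling genes lower in place of 13. This setting changed both the p and the fold limit, and an unadjusted p admits every gene that an adjusted p does. Leaving out 1 library gave 3 to 5 GPI genes lower, and *PIGV* was not called with library totals only (0.31, edgeR adjusted p = 0.0512). With the replicate number as a block, the counts were 6 lower and 1 higher for the complement genes, 6 and 3 for the other complement genes, 5 and 3 for the GPI genes and 13 and 7 for the signalling genes, so the block changed none of these counts, though *KRT8* was called lower with it (−0.19). The scalings moved the median of all genes by at most 0.03 (log2). Depth limits *SERPING1* and *CFI*, which had at most 66 and 2 counts in a library.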

Other observations

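The nearest tested genes on either side of each complement gene were taken by position, leaving out genes that overlap it. *CFB* ends 3 bases before *NELFE*, a subunit of the negative elongation factor, which rose (log2 fold change 0.51, SE 0.09, edgeR adjusted p = 9.14e-05) where *CFB* fell. Next to *C1S*, *PHB2*, which encodes prohibitin 2, lies 17434 bases away and was called higher (0.30). Beyond *C1R* the antisense gene *C1RL-AS1* was called lower (−1.05). It overlaps *C1RL* on the opposite strand, so reads may be shared between them. The mean counts of *C1RL-AS1* were 151 in sgCtrl and 72.3 in sg*NF2*-1, against 1311 and 758 for *C1RL*. On both sides of *C3*, *CD70* at 73601 bases and *TRIP10* at 7363 bases were not called (−0.29 and 0.19). *FBXO3*, 4448 bases from *CD59*, was called lower (−0.33).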
